A study of Mus musculus with 8 samples.

Results

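The genes used to recognise macrophages and monocytes in lung were 10 of the 25965 in a whole-lung RNA-seq table, taken by symbol: Csf1r, Cd68, Marco, Mrc1, Itgax, Msr1, Cd14, Pparg, Cx3cr1 and Ly6c2. All 10 were found there. The 8 libraries were total RNA of whole lungs from Wfdc2+/+ mice and Wfdc2 GFP/GFP mice at E18.5, shortly before birth, and at P1.5, shortly after it, with 2 libraries in each of the 4 groups. In Wfdc2 GFP/GFP mice an IRES-EGFP cassette stands on both alleles in place of part of exon 1 and all of exon 2 of Wfdc2, which encodes a secreted protease inhibitor of the airway epithelium. The allele was made in TT2 embryonic stem cells and cleared of its selection cassette by a cross to CAG-Cre mice, homozygotes came from heterozygote intercrosses, and controls were Wfdc2+/+ littermates. The allele is inactive in every cell of the body, so no comparison here isolates the lung or any one cell type.

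Macrophages of the fetal lung descend from yolk sac and liver progenitors, and fetal monocytes that enter the lung around birth mature into alveolar macrophages under GM-CSF signalling and PPARγ. Their surface carries scavenger and lectin receptors for microbes and debris, which recognise ligands that change when the lung fills with air and meets the outside world. Interstitial macrophages and blood monocytes share some of these receptors, and neutrophils, dendritic cells and some epithelial cells share others, so none of the 10 genes marks one cell state alone.

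Recovered read totals ran from 19457647 to 37209333 per library, and values below are RPM, reads scaled to that total, unless another unit is named. A count of 0 allows up to 3 reads, or 0.0806 to 0.154 RPM, a limit that covers counting error only, while SEs and 95% intervals come from limma and the spread between libraries. The targeted gene Wfdc2 had 8038 to 32845 reads in the Wfdc2+/+ libraries and 0 to 12 in the Wfdc2 GFP/GFP libraries. Replicate 1 of every group carried at least 4121 Xist reads and replicate 2 at least 972 Ddx3y reads, so each group held 1 female and 1 male lung, and sex cannot be told apart from the replicate number. Sftpc, the surfactant protein of alveolar type II cells, was the most abundant gene in each library but E18.5 Wfdc2 GFP/GFP replicate 1. Libraries of one group did not always look alike. At P1.5 the summed level of 8 fibroblast markers was 1264 and 7823 RPM in replicates 1 and 2 of Wfdc2+/+, against 1831 and 2613 RPM in Wfdc2 GFP/GFP. At E18.5 the 10 surfactant-cell (alveolar type II) markers summed to 10240 RPM in Wfdc2 GFP/GFP replicate 1, against 19930 to 24930 RPM in the other E18.5 lungs, and that library had the lowest value of all 8 for 6 of the 10 macrophage and monocyte genes (Csf1r, Cd68, Marco, Itgax, Cd14 and Ly6c2). The labels do not say that samples came from separate litters, so p-values measure the spread between these lungs only.

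All 10 genes passed the filter on low values, set at 0.05 RPKM for the mean of all 8 libraries, as did 15627 genes in all. Itgax passed through its P1.5 libraries and Pparg through its E18.5 libraries. As RPM per kilobase of exon, Cd68 was highest with a median of 13.2 over the 8 libraries (range 5.26 to 28.5). Marco followed with 9.14 (1.19 to 34.1), then Csf1r with 7.50, Mrc1 with 7.14 and Cd14 with 5.26 (2.17 to 42.5). The genes with the lowest medians were Pparg (2.96), Ly6c2 (2.05), Msr1 (1.28) and Itgax (0.241), and the ranges of every pair of neighbours in this order overlapped. Cx3cr1 is placed separately because most reads of its row belong to other genes. These levels count reads over introns as well as exons.

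**Figure D1:**
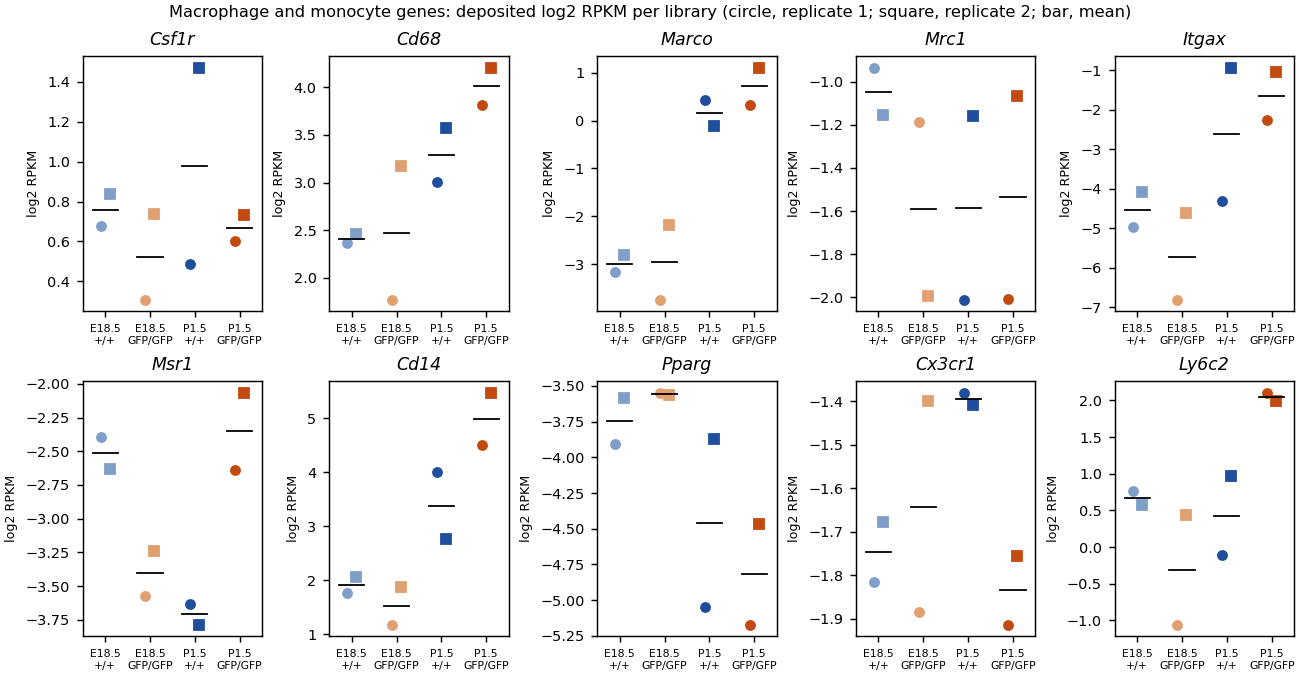
Deposited log2 RPKM (y axis) of each gene in the 4 groups (x axis, stage and Wfdc2 genotype), with circles for replicate 1, squares for replicate 2 and a bar for the mean of the 2. Each panel has its own scale. For Marco and Cd14 all 4 P1.5 libraries lie above all 4 E18.5 libraries, and for Cd14, Msr1 and Ly6c2 both P1.5 GFP/GFP libraries lie above both P1.5 +/+ libraries.

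The first comparison asked whether lungs without Wfdc2 differed in these genes after birth. At P1.5, Ly6c2, Cd14 and Msr1 had the largest values in Wfdc2 GFP/GFP relative to Wfdc2+/+, between 2.56-fold and 3.07-fold, and Cd68 was 1.65-fold higher. None of the 10 passed an adjusted p of 0.05 in limma, where 0.0128% of all genes tested did. Ly6c2, Cd14 and Msr1 had an unadjusted p under 0.05 with a higher level, 3 of 10 against 3.61% of all genes. Those 3 and Cd68 were higher in both Wfdc2 GFP/GFP libraries than in both Wfdc2+/+ libraries, 4 of 10 against 12.6% of all genes, and 1 of 10, the row of Cx3cr1, was lower in both, against 26.9%. Values were positive for 7 of the 10, against 38.8% of all genes. Their median was 0.64 on the log2 scale while that of all genes tested was -0.20, and the 10 genes' median ran from 0.12 with a pseudocount of 1 RPKM to 0.84 with each library centred on its median. Mrc1, Itgax, Msr1, Pparg and Cx3cr1 lay under 1 RPKM in every library, so that pseudocount draws their changes towards 0. The median of 0.64 rested in part on P1.5 Wfdc2+/+ replicate 1 and P1.5 Wfdc2 GFP/GFP replicate 2, without which it was 0.03 and 0.26. Exact permutation of 2 against 2 lungs has a smallest p of 0.333 and was not used. In whole-lung RNA, fewer cells of a type and less RNA per cell cannot be told apart, here and in every comparison below.

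Before birth none of the 10 genes was called between genotypes either. At E18.5 every adjusted p was 0.9998 in limma, where 0.0192% of genes passed, and none of the 10 had an unadjusted p under 0.05 (3.78% of all genes did with a higher level and 0.595% with a lower one). Msr1, Ly6c2 and Mrc1 were lower in both Wfdc2 GFP/GFP libraries, 3 of 10 against 9.46% of all genes, and Pparg was higher in both, 1 of 10 against 26.5%. Values were positive for 4 of 10, against 59.2% of all genes, with a median of -0.31 against 0.09. Without E18.5 Wfdc2 GFP/GFP replicate 1 the 10 genes' median was -0.03, and without replicate 2 it was -0.69. The difference between the genotype effects at P1.5 and E18.5 was called for no gene in the whole table, so percent called was 0. At an unadjusted p under 0.05 it was positive for 3 of the 10 (Msr1, Ly6c2 and Cd14), against 2.18% of all genes, and negative for none, against 8.06%. Irrespective of p it was positive for 7 of 10, against 35.6%.

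**Figure D2:**
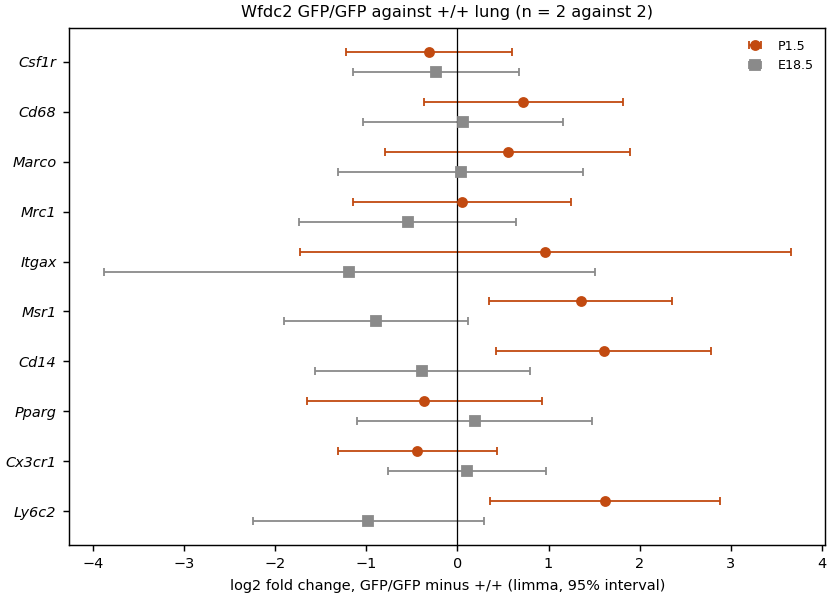
Log2 fold change of Wfdc2 GFP/GFP over Wfdc2+/+ (x axis) for each gene (y axis) at P1.5 (circles) and E18.5 (squares), with 95% intervals from limma, 2 libraries against 2. At P1.5 the intervals of Msr1, Cd14 and Ly6c2 lie above 0 before adjustment for the 15627 genes tested, and at E18.5 every interval includes 0.

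The comparison of P1.5 with E18.5 asked how the genes changed over birth in each genotype. Marco and Cd14 rose in Wfdc2 GFP/GFP, by 12.8-fold and 11.0-fold, the only 2 of the 10 genes called there with limma. Among all genes 4.55% were called, 1.61% as higher and 2.94% as lower. At an unadjusted p under 0.05, 6 of the 10 were higher, against 9.61% of genes, and none was lower, against 26%. In the same lungs 6 of the 10 had no overlap and were higher at P1.5, against 18.7% of genes, and Pparg was lower in both, against 48.5%. Itgax was in both counts of 6 and had passed the filter on low values through its P1.5 libraries. Pparg had passed it through its E18.5 libraries, so the stage directions of both genes were tied to the filter. In Wfdc2+/+ no gene of the 10 was called (0.0576% of all genes were). Marco and Cd14 there had an unadjusted p under 0.05 with a higher level, 2 of 10 against 6.9%, and Msr1 with a lower one, 1 of 10 against 4.93%. In Wfdc2+/+, 4 of 10 were higher in both P1.5 libraries (27.4% of all genes) and 2 were lower in both (28.2%). One of those 4 was the row of Cx3cr1, whose libraries overlapped once the reads of other genes were removed, as described below. Stage effects were positive for 8 of 10 in Wfdc2 GFP/GFP (36.1% of all genes) and for 6 of 10 in Wfdc2+/+ (42.9%), with medians of 1.30 and 0.29, against -0.46 and -0.15 over all genes. The median in Wfdc2+/+ was -0.03 without P1.5 Wfdc2+/+ replicate 2, -0.01 with the inner genes' reads taken from the Cx3cr1 row and 0.88 with the filter at 0.5 RPKM. In Wfdc2 GFP/GFP it was 0.86 without E18.5 Wfdc2 GFP/GFP replicate 1, 0.26 with a pseudocount of 1 RPKM and 2.36 with the filter at 0.5 RPKM. That filter kept only Csf1r, Cd68, Marco, Cd14 and Ly6c2. The 0.88 and 2.36 are thus the unchanged effects of Cd68 and Ly6c2, the middle ones of those kept. The genes it removed lay under 1 RPKM in every library, so a pseudocount of 1 RPKM draws their changes towards 0. These comparisons share libraries with those between genotypes, and the genotypes' stage effects differ by the same term tested above.

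**Figure D3:**
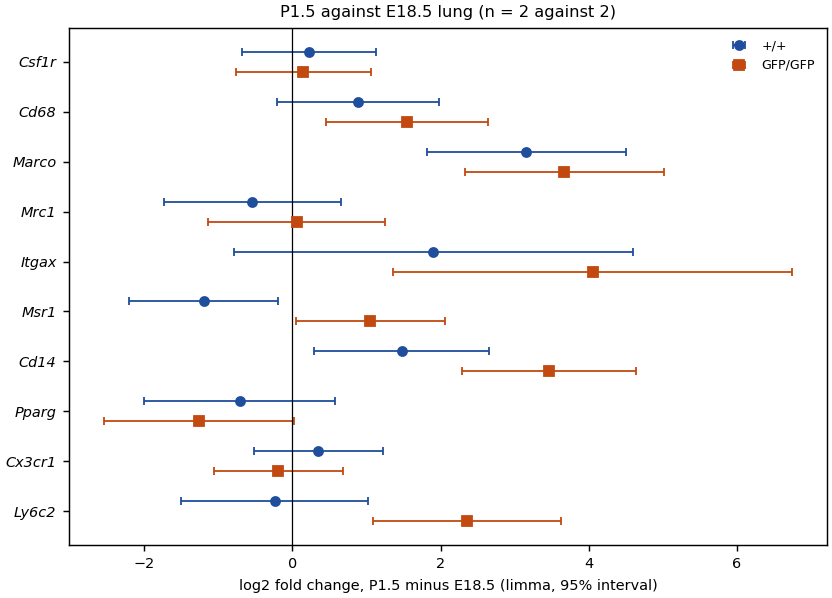
Log2 fold change of P1.5 over E18.5 (x axis) for each gene (y axis) in Wfdc2+/+ (circles) and Wfdc2 GFP/GFP (squares), with 95% intervals from limma, 2 libraries against 2. Marco is at 3.16 in Wfdc2+/+ and 3.67 in Wfdc2 GFP/GFP, while Msr1 is at -1.20 in the former and 1.05 in the latter.

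Marco and Cd14 were also the 2 genes whose 4 P1.5 libraries, genotypes pooled, were all above the 4 E18.5 libraries, which 7.28% of all genes were. Each had an exact two-sided permutation p of 0.0286, the smallest that 4 against 4 allow and not adjusted for the 10 genes. A further 13.7% of all genes had all 4 P1.5 libraries below the 4 E18.5 libraries, which gives the same p. Thus 2 of 10 genes at this p, in either direction, do not exceed what the whole table shows. Both genes lost their calls in Wfdc2 GFP/GFP when some single libraries were left out, in fits that leave 1 library in a group. Calls over the whole table fell in those fits too, so the losses are not particular to these genes. Cd14 was not called without E18.5 Wfdc2 GFP/GFP replicate 1 (adjusted p = 0.190 with limma), without P1.5 Wfdc2 GFP/GFP replicate 1 (0.0977) or without P1.5 Wfdc2 GFP/GFP replicate 2 (0.118), with log2 fold changes between 2.98 and 3.95. Marco was not called without the same 3 libraries (0.165, 0.138 and 0.134 in limma), nor without E18.5 Wfdc2+/+ replicate 1 (0.0635) or 2 (0.0638), with log2 fold changes between 2.89 and 4.06. Without P1.5 Wfdc2+/+ replicate 2, the library with the high fibroblast sum, the log2 stage effects in Wfdc2+/+ were 3.425 for Marco and 2.091 for Cd14. That fit rests on 1 library for P1.5 Wfdc2+/+, and calls over the whole table rose with it, as given at the end.

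The receptor for CSF-1 and IL-34, on which macrophages depend for survival, is encoded by Csf1r. Its levels in replicates 1 and 2 were 42.5 and 47.5 RPM in E18.5 Wfdc2+/+, 32.9 and 44.3 in E18.5 Wfdc2 GFP/GFP, 37.3 and 73.7 in P1.5 Wfdc2+/+, and 40.4 and 44.2 in P1.5 Wfdc2 GFP/GFP. P1.5 Wfdc2+/+ replicate 2 stood above the rest, and the other 7 libraries lay close together across stage and genotype. The log2 fold change between genotypes at P1.5 was -0.31 (SE 0.39, adjusted p = 0.788 with limma). Centring each library on its median put all 4 P1.5 libraries above all 4 E18.5 libraries, with a log2 difference of 0.65 (exact permutation p = 0.0286), where the values as deposited gave 0.18 (exact permutation p = 0.6). The 3′ end of Csf1r shares 873 exon bases with Hmgxb3 on the opposite strand. Its own ligands Csf1 and Il34, named outside the rule for named genes, differed between genotypes at P1.5 by 0.41 (SE 0.67) and 0.03 (SE 0.57) on the log2 scale, with overlapping libraries.

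Cd68, a lysosomal glycoprotein abundant in phagocytes, lies at chr11:69664213-69666153 on the minus strand (mm10). It had 9.96 and 10.7 RPM in E18.5 Wfdc2+/+, 6.61 and 17.5 in E18.5 Wfdc2 GFP/GFP, 15.6 and 23.2 in P1.5 Wfdc2+/+, and 27.4 and 35.9 in P1.5 Wfdc2 GFP/GFP. Both P1.5 Wfdc2 GFP/GFP lungs were above every other library, while the E18.5 Wfdc2 GFP/GFP pair spanned the range from the lowest value to above one of the P1.5 Wfdc2+/+ lungs. The genotype effect at P1.5 was 0.72 on the log2 scale (SE 0.47, adjusted p = 0.629 with limma). The stage effect in Wfdc2 GFP/GFP was 1.54 (SE 0.47, adjusted p = 0.0745 with limma), and it was called at 2.22 after median centring (adjusted p = 0.0448 with limma). That centring raised the genes called as higher there from 252 to 849 of the 15627 tested, so the gain was not particular to Cd68.

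Of the scavenger receptors, Marco, which binds bacteria and inhaled particles on alveolar macrophages, lies at chr1:120474538-120505084 on the minus strand. It had 3.40 and 4.33 RPM in E18.5 Wfdc2+/+, 2.28 and 6.77 in E18.5 Wfdc2 GFP/GFP, 41.2 and 28.4 in P1.5 Wfdc2+/+, and 38.3 and 65.7 in P1.5 Wfdc2 GFP/GFP. The lowest P1.5 lung was far above the highest E18.5 lung, and at P1.5 the genotypes overlapped. The stage effect was 3.16 in Wfdc2+/+ (SE 0.58, adjusted p = 0.103 with limma) and 3.67 in Wfdc2 GFP/GFP (SE 0.58, adjusted p = 0.0331 with limma). The genotype effect at P1.5 was 0.55 (SE 0.58, adjusted p = 0.785 with limma).

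Msr1, the class A scavenger receptor for modified lipoproteins, lies at chr8:39581700-39642678 on the minus strand. It had 11.6 and 9.85 RPM in E18.5 Wfdc2+/+, 5.13 and 6.46 in E18.5 Wfdc2 GFP/GFP, 4.93 and 4.42 in P1.5 Wfdc2+/+, and 9.80 and 14.6 in P1.5 Wfdc2 GFP/GFP. The genotypes did not overlap at either stage and stood in opposite order: Wfdc2+/+ lungs were the higher ones before birth and the lower ones after. The log2 fold change between genotypes was -0.89 at E18.5 (SE 0.43, unadjusted p = 0.0743 and adjusted p = 0.9998 with limma) and 1.36 at P1.5 (SE 0.43, unadjusted p = 0.0145 and adjusted p = 0.344 with limma). The difference of these was 2.25 (SE 0.61, adjusted p = 0.280 with limma). Over birth Msr1 was at -1.20 in Wfdc2+/+ (SE 0.43, adjusted p = 0.379 with limma) and at 1.05 in Wfdc2 GFP/GFP (SE 0.43, adjusted p = 0.128 with limma).

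Mrc1 encodes the mannose receptor CD206, a lectin of resident and alveolar macrophages, at chr2:14229414-14332057 on the plus strand. Its levels were 53.7 and 46.1 RPM in E18.5 Wfdc2+/+, 45.0 and 25.7 in E18.5 Wfdc2 GFP/GFP, 25.5 and 46.0 in P1.5 Wfdc2+/+, and 25.6 and 49.0 in P1.5 Wfdc2 GFP/GFP. In 3 groups one library was near the top of the range and the other near the bottom, so the spread within groups was as wide as that between them. The genotype effect was 0.05 at P1.5 (SE 0.52, adjusted p = 0.977 with limma) and -0.55 at E18.5 (SE 0.52), and the 95% interval at P1.5 ran from -1.15 to 1.24.

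Cd14 is the co-receptor that hands lipopolysaccharide to TLR4 and is made by monocytes, macrophages and neutrophils. It had 5.64 and 6.93 RPM in E18.5 Wfdc2+/+, 3.76 and 6.09 in E18.5 Wfdc2 GFP/GFP, 26.6 and 11.3 in P1.5 Wfdc2+/+, and 37.8 and 73.7 in P1.5 Wfdc2 GFP/GFP. Each P1.5 lung was above each E18.5 lung, and both P1.5 Wfdc2 GFP/GFP lungs were above both controls. Within replicate 1, the females, the P1.5 ratio of Wfdc2 GFP/GFP to Wfdc2+/+ was 1.42, and within replicate 2, the males, it was 6.52. The genotype effect at P1.5 was 1.60 on the log2 scale (SE 0.51, unadjusted p = 0.0139 and adjusted p = 0.344 with limma), and leaving out single libraries moved it between 0.99 and 2.22. The stage effect was 3.46 in Wfdc2 GFP/GFP (SE 0.51, adjusted p = 0.0276 with limma) and 1.47 in Wfdc2+/+ (SE 0.51, adjusted p = 0.367 with limma). Tlr4, its signalling partner, named outside the rule, was at -0.29 between genotypes at P1.5 (SE 0.48), with overlapping libraries.

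Itgax, the integrin CD11c of alveolar macrophages and dendritic cells, lies at chr7:128129547-128150656 on the plus strand. It was the scarcest of the 10, with 7 to 39 reads at E18.5 and 23 to 298 at P1.5. Its levels were 0.668 and 1.25 RPM in E18.5 Wfdc2+/+, 0.188 and 0.855 in E18.5 Wfdc2 GFP/GFP, 1.06 and 11.0 in P1.5 Wfdc2+/+, and 4.36 and 10.2 in P1.5 Wfdc2 GFP/GFP. The 2 P1.5 Wfdc2+/+ lungs were far apart, one at the E18.5 level and the other the highest of all 8. The summed level of 12 dendritic-cell markers ran the same way in these lungs, at 40.5 and 221 RPM. It was 160 and 240 RPM in P1.5 Wfdc2 GFP/GFP. Only 6 of the 12 passed the filter on low values, and they did not all run alike. In the 2 P1.5 Wfdc2+/+ lungs Cd74 had 10.6 and 115 RPM, while Batf3 went the other way, at 3.04 and 1.28 RPM. The part of dendritic cells in the Itgax values was not tested. The genotype effect at P1.5 was 0.97 (SE 1.16, adjusted p = 0.788 with limma), and without P1.5 Wfdc2+/+ replicate 1 it turned to -0.72. The stage effect in Wfdc2 GFP/GFP was 4.05 (SE 1.16, adjusted p = 0.0679 with limma), against 1.90 (SE 1.16) in Wfdc2+/+. Of its 36-base sequences 9.88% also occur in the neighbouring integrin gene Itgad.

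Pparg, the nuclear receptor that drives alveolar macrophage identity and is also used by adipocytes and some epithelium, lies at chr6:115361221-115490401 on the plus strand. It had 8.63 and 10.8 RPM in E18.5 Wfdc2+/+, 11.0 and 10.9 in E18.5 Wfdc2 GFP/GFP, 3.91 and 8.84 in P1.5 Wfdc2+/+, and 3.58 and 5.85 in P1.5 Wfdc2 GFP/GFP. The E18.5 lungs were the higher ones apart from 1 P1.5 Wfdc2+/+ lung that reached their lower edge. The stage effect was -0.71 in Wfdc2+/+ (SE 0.56) and -1.26 in Wfdc2 GFP/GFP (SE 0.56, adjusted p = 0.145 with limma), and over both genotypes the log2 difference of -0.99 had an exact permutation p of 0.0571. The median of all genes over the same step in Wfdc2 GFP/GFP was -0.46, and with libraries centred on their medians the pooled difference of Pparg was -0.52 (exact permutation p = 0.0286). It was thus opposite in sign to Marco, Cd14, Cd68 and Itgax under the deposited, median-centred and quantile-normalized scales of that comparison.

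Ly6c2, part of the Ly6C antigen of inflammatory monocytes, lies at chr15:75108160-75111684 on the minus strand. It had 5.98 and 5.26 RPM in E18.5 Wfdc2+/+, 1.69 and 4.79 in E18.5 Wfdc2 GFP/GFP, 3.27 and 6.89 in P1.5 Wfdc2+/+, and 15.2 and 14.0 in P1.5 Wfdc2 GFP/GFP. The 2 P1.5 Wfdc2 GFP/GFP lungs were close together and were above all other libraries, and before birth the same genotype was the lower one in both lungs. The genotype effect was 1.62 at P1.5 (SE 0.55, unadjusted p = 0.0186 and adjusted p = 0.358 with limma), -0.98 at E18.5 (SE 0.55), and their difference was 2.60 (SE 0.77, adjusted p = 0.321 with limma). The E18.5 effect rested on Wfdc2 GFP/GFP replicate 1, the library with the low surfactant-cell sum, and was -0.23 without it. The stage effect was 2.36 in Wfdc2 GFP/GFP (SE 0.55, adjusted p = 0.0514 with limma) and -0.24 in Wfdc2+/+ (SE 0.55). Of the 36-base sequences of Ly6c2, 18.8% are also in its near copy Ly6c1, so some reads could have been placed on either gene. Ly6c1 itself had 78.1 and 46.8 RPM in P1.5 Wfdc2+/+ and 63.9 and 69.6 in P1.5 Wfdc2 GFP/GFP, overlapping between genotypes (log2 fold change 0.14, SE 0.46).

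The promoters of Marco, Cd68, Ly6c2 and Mrc1 are shown for the short element bound by the myeloid factor PU.1. Marco and Cd68 were higher in both P1.5 lungs of each genotype. For Mrc1 the P1.5 and E18.5 lungs overlapped in Wfdc2 GFP/GFP. In Wfdc2+/+ both P1.5 lungs were lower for Mrc1, at 25.5 and 46.0 RPM against 53.7 and 46.1 RPM. The 250 bases before the RefSeq start are given 5′ to 3′ on the gene's strand from GRCm38.p6, at chr1:120505025-120505274 (minus) for Marco, chr11:69666171-69666420 (minus) for Cd68, chr2:14229164-14229413 (plus) for Mrc1 and chr15:75111972-75112221 (minus) for 1 of the 2 starts of Ly6c2. Capitals mark every GAGGAA or its reverse complement TTCCTC.
Marco: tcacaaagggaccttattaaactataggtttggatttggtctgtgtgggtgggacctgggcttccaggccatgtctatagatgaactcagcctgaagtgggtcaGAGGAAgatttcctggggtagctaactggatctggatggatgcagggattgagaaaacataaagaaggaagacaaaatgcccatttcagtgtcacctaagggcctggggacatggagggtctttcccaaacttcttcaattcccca
Cd68: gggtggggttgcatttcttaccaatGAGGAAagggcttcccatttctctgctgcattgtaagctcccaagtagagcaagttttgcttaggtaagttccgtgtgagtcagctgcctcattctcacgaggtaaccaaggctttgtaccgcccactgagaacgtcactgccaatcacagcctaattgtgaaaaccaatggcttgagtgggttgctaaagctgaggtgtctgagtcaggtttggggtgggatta
Mrc1: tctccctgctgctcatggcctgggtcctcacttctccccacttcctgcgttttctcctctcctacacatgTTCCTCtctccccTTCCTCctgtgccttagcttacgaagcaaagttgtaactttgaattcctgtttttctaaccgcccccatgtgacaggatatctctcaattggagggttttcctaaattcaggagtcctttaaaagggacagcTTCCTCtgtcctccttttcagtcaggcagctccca
Ly6c2: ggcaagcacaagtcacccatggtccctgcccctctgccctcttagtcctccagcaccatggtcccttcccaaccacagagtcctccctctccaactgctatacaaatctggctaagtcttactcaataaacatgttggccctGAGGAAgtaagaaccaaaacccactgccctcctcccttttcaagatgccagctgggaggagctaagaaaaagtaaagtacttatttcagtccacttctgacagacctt
Marco, Cd68 and this Ly6c2 start held 1 match each, beginning 146, 225 and 108 bases before the start, and Mrc1 held 3, at 180, 167 and 35 bases. RefSeq promoters were at hand for 7 of the 10 genes, with 10 windows among them. The hexamer was in 6 of these 10 windows (60%), against 23.3% of 32851 promoters of the same length, and 5 of the 7 genes (71.4%) had it in at least 1 window. The 2 windows of Ly6c2 overlap and hold 1 match in common, and Pparg supplied several windows. The 71.4% has no share over all genes to set beside it, and none of these shares was tested. The match was thus present in Marco and Cd68 and also in Mrc1, and it is a description of the letters only.

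Cx3cr1, the fractalkine receptor of patrolling monocytes and some resident macrophages, could not be read from its row as it stands. The row spans chr9:119901616-120068283 on the minus strand, 166668 bases, whereas the RefSeq gene covers 19614 bases. Inside the span, on the same strand, lie Gorasp1, Csrnp1 and Xirp1, which have rows of their own. Counting in this table followed the strand and took in everything within the span: of 239 rows nested in another on the same strand with at least 100 reads, the outer row had at least as many reads as the inner one in every library in all 239, against 57.7% of 437 pairs on opposite strands. The 3 inner genes accounted for 62.5% to 88.6% of the reads of the Cx3cr1 row. The row had 47.4 and 52.1 RPM in E18.5 Wfdc2+/+, 45.1 and 63.2 in E18.5 Wfdc2 GFP/GFP, 64.0 and 62.8 in P1.5 Wfdc2+/+, and 44.3 and 49.4 in P1.5 Wfdc2 GFP/GFP, lower in both mutants than in both controls after birth. Without the inner genes' reads there remained 15.0 and 17.6, 13.7 and 17.8, 7.28 and 23.5, and 11.3 and 14.5 RPM in the same order, so the 2 P1.5 Wfdc2+/+ lungs now enclosed the Wfdc2 GFP/GFP pair. The genotype effect at P1.5 was -0.44 for the row (SE 0.38, adjusted p = 0.724 with limma) and -0.03 for the remainder. The stage effect in Wfdc2+/+ went from 0.35 for the row to -0.31 for the remainder. Per kilobase of exon the remainder had a median of 3.28 (range 1.61 to 5.22), between Cd14 and Pparg.

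**Figure D4:**
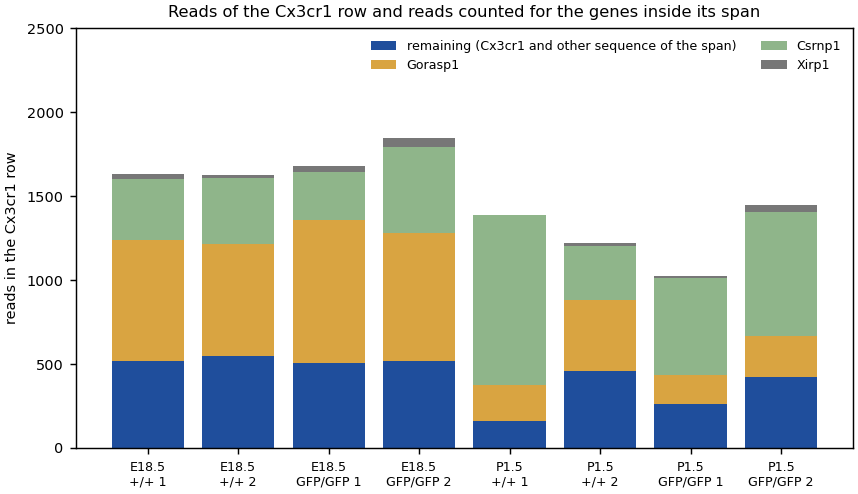
Reads in the Cx3cr1 row of each library (y axis, stacked) for the 8 libraries (x axis, stage, genotype and replicate), divided into the reads counted for Gorasp1, Csrnp1 and Xirp1 in their own rows and the remainder. The remainder runs from 158 reads in P1.5 +/+ replicate 1 to 548 in E18.5 +/+ replicate 2, and Csrnp1 alone has 1010 of the 1390 reads in the former.

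Ligands, partners and upstream factors of these receptors were followed as a list of 16 genes, all tested. None was called between genotypes, and the median log2 fold change at P1.5 was 0.22. Ccl2, the chemokine that draws CCR2-bearing monocytes, had 4 and 18 reads in P1.5 Wfdc2+/+ and 86 and 459 in P1.5 Wfdc2 GFP/GFP. Both mutants were above both controls, with a log2 fold change of 4.21 (SE 0.90, adjusted p = 0.249 with limma). Cx3cl1, the ligand of CX3CR1, was at 0.86 (SE 0.46) and higher in both mutants. Csf2, which encodes GM-CSF, was at -1.18 (SE 0.83) and its receptor chain Csf2ra at -0.62 (SE 0.72), both with overlapping libraries. A list of 10 textbook target genes of PPARγ had a median of -0.50 at P1.5, 6 of them negative. None was called, and 3 had an unadjusted p under 0.05 with a lower level, against 7.33% of all genes. They were Angptl4 (-1.31, SE 0.46), Pdk4 (-1.14, SE 0.36) and Lpl (-0.95, SE 0.33), which encode a lipoprotein lipase inhibitor, a mitochondrial kinase of fuel choice and lipoprotein lipase. The cholesterol exporter Abcg1 was at -1.28 (SE 0.61) and lower in both mutants. The 14 other scavenger and pattern recognition receptors tested divided evenly, 7 higher and 7 lower at P1.5, with a median of 0.12 and none called. Over birth in Wfdc2 GFP/GFP, Clec4n (a fungal lectin receptor) and Cxcl16 (a membrane-bound chemokine that binds oxidised lipoprotein) were called higher (2.24 and 3.14). Stab2, the hyaluronan receptor of sinusoidal endothelium, was called as lower there, at -5.74. It had passed the filter on low values through its E18.5 libraries, so its direction was tied to the filter. In that comparison 1.61% of all genes were called as higher and 2.94% as lower.

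Other markers of the lineage were divided into 4 lists, which had no gene called between genotypes at either stage. At P1.5 the median genotype effect was 0.45 for 16 genes shared by mononuclear phagocytes (13 higher), 0.18 for 14 alveolar macrophage genes (8 higher), -0.00 for 12 interstitial macrophage genes (6 higher) and 0.75 for 12 monocyte genes (8 higher). At E18.5 all 4 medians were negative, from -0.67 for the monocyte list to -0.29 for the interstitial list. For the alveolar and interstitial lists the summed levels set the mutant replicates apart. Replicate 1 had 578 and 624 RPM, below both controls in each (917 and 962, 870.0 and 1033 RPM). Replicate 2 had 1142 and 1127 RPM, above both controls. For the shared list both mutants, at 334 and 755 RPM, were below both controls, at 897 and 965 RPM. Within that sum Lyz2, named outside the rule, had 554 and 621 RPM in the controls and 84.9 and 397 RPM in the mutants. With Lyz2 left out, the order was lost: mutant replicate 1 lay below both controls and replicate 2 above them. Mutant replicate 1 was also the library with the low surfactant-cell sum, whose part in the Lyz2 values was not tested. The monocyte sums overlapped between genotypes. Monocyte genes with the largest P1.5 values were S100a4 (2.15, SE 0.46), which other cells also make, and Plac8 (1.70, SE 0.53), both higher in both mutants. Ccr2 was at 1.55 (SE 0.98) and overlapped. Of the interstitial list, Trem2, a lipid receptor, was at 1.67 (SE 0.37), and Ms4a7 at 1.45 (SE 0.44). Mertk, the receptor for apoptotic cells, was at -1.77 (SE 0.48), lower in both mutants. Over birth in Wfdc2 GFP/GFP, calls with limma were Tyrobp (2.34) among the shared genes, Krt79 (2.40), Atp6v0d2 (3.13) and 1600029D21Rik (1.86) among the alveolar ones, Pf4 (2.19) and Trem2 (1.93) among the interstitial ones, and S100a4 (2.60) and Plac8 (3.24) among the monocyte ones, all higher, with Mertk lower (-3.00). Among these calls over birth, Krt79 and Atp6v0d2 had passed the filter on low values through their P1.5 libraries. At E18.5 they had 11 to 16 and 30 to 70 reads, so their direction was tied to the filter. In that comparison 4.55% of all genes were called, and none in the whole table was without E18.5 Wfdc2 GFP/GFP replicate 1 or without P1.5 Wfdc2 GFP/GFP replicate 1. In Wfdc2+/+ none of the 4 lists had a call, and the alveolar list had the highest of their medians, 1.04, with 5 of 14 genes at an unadjusted p under 0.05 with a higher level, against 6.9% of all genes. The alveolar genes Lpl, Abcg1, Fabp4 and Car4 are shared with the PPARγ list.

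Markers of other cells that share these receptors were read beside them. All 14 neutrophil markers had a positive stage effect in both genotypes, with medians of 2.96 in Wfdc2+/+ (1 called) and 2.59 in Wfdc2 GFP/GFP (8 called, among them S100a9 at 4.85 and Mmp9 at 4.14). Over all genes 0.0576% and 4.55% were called, and 42.9% and 36.1% had a positive value. At least Ly6g and Mpo of the neutrophil markers had passed the filter on low values through their P1.5 libraries. The summed level of the neutrophil markers was 63.0 to 101.5 RPM over the E18.5 lungs and 695 to 1914 RPM over the P1.5 lungs, with none of the defining genes at or under 3 reads in every library, and their part in the rise of Cd14 and Marco was not tested. Between genotypes at P1.5 the neutrophil sums overlapped, at 1914 and 695 RPM in Wfdc2+/+ and 1492 and 959 RPM in Wfdc2 GFP/GFP. The highest neutrophil sum was thus in a control. The 6 dendritic-cell genes tested of 12 had positive values between genotypes at P1.5, with a median of 1.37 and none called, but their sums overlapped as given above for Itgax, with P1.5 Wfdc2+/+ replicate 1 the low library. The 7 lymphocyte genes had a median of 0.71 and no call. For cells that make up most of the lung, medians between genotypes at P1.5 were 0.37 for 10 alveolar type II genes, 0.09 for 10 endothelial genes, 0.11 for 9 erythroid genes and -0.48 for 8 fibroblast genes, none called. The 7 cardiac muscle genes had positive values at both stages, with medians of 0.84 at E18.5 and 0.75 at P1.5 and no call.

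**Figure D5:**
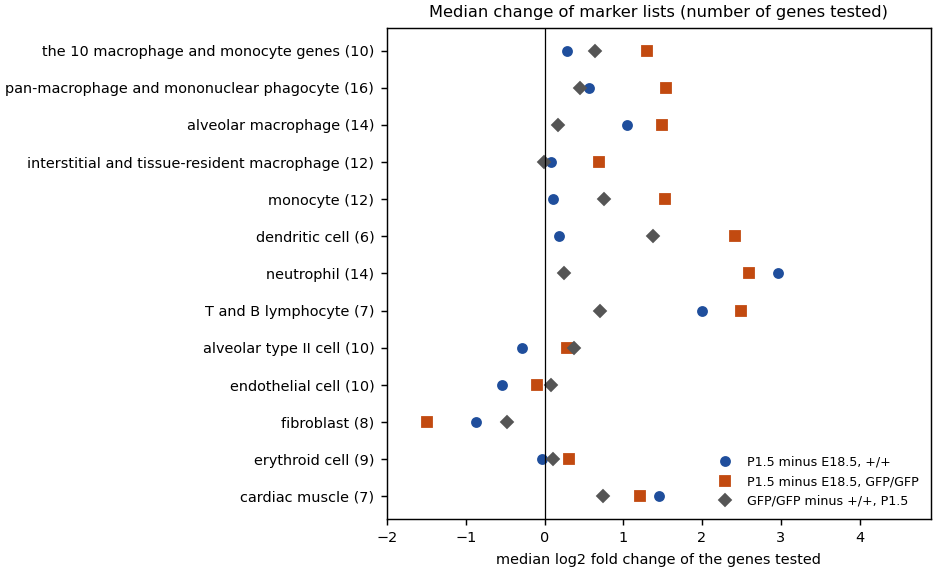
Median log2 fold change (x axis) of each marker list (y axis, with the number of genes tested) for P1.5 over E18.5 in Wfdc2+/+ (circles) and Wfdc2 GFP/GFP (squares) and for Wfdc2 GFP/GFP over Wfdc2+/+ at P1.5 (diamonds). The neutrophil list has the largest stage medians, 2.96 and 2.59, and a genotype median of 0.24, while the fibroblast list is negative in all 3.

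Among themselves the 10 genes did not move as one block. Over the 8 libraries, whose shared stage, depth and tissue makeup enter every pair, Marco and Cd14 had a Pearson r of 0.93, Cd68 and Itgax 0.91, and Cd68 and Marco 0.90. Pparg ran opposite to Cd14, at -0.82, and to Marco, at -0.78. Mrc1 and Csf1r were weakly related to most others. Among 12565 other genes with at least 20 reads in every library, those most like the mean profile of the 10 genes were Lfng (r = 0.99), Tm4sf1 (0.99), Srgn (0.99), C1ra (0.99), 4930471M23Rik (0.98), Cd37 (0.98), Sfpi1 (0.98) and Tuba1a (0.98). Sfpi1 encodes PU.1, the factor whose element was searched in the promoters above. It had 12.6 and 14.8 RPM in E18.5 Wfdc2+/+, 5.80 and 16.2 in E18.5 Wfdc2 GFP/GFP, 18.7 and 26.7 in P1.5 Wfdc2+/+, and 32.1 and 42.0 in P1.5 Wfdc2 GFP/GFP. The P1.5 lungs were all above the E18.5 lungs, the mutants above the controls after birth. Sfpi1 was named for its likeness to the mean profile of the 10 genes, so this order largely restates that choice. Its stage effect in Wfdc2 GFP/GFP was 1.92 (SE 0.52, adjusted p = 0.0631 with limma) and its genotype effect at P1.5 was 0.72 (SE 0.52, adjusted p = 0.671 with limma).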

How the data were processed

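Total RNA of 8 whole lungs was sequenced from directional libraries on a HiSeq or a Genome Analyzer instrument. Which library ran on which is not given in the sources used here, and an instrument effect was not tested. The authors removed the 3′ ends of reads over 36 bases, trimmed with Trim Galore 0.4.0, mapped to mm10 with TopHat 2.1.1 and mRNA coordinates, and used SeqMonk to quantify genes. Deposited values are log2 RPKM. Tested on the values, a gene's length is its full extent including introns, and genes lacking reads were set to 0.9 read. Between 99.86% and 99.96% of values gave whole reads within 0.02, from which reads and RPM were recovered. How reads with several placements were counted is not given in the sources used here.

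Groups came from the labels. The 15627 genes averaging 0.05 RPKM or more were fitted by limma 3.58.1 (R 4.3.3) on log2 RPKM without a pseudocount. The model had a mean for each group, a trended prior, 4 residual degrees of freedom and no replicate block. P-values are two-sided and Benjamini-Hochberg adjusted over all genes tested, with a threshold of 0.05. The fit was tested on simulated data. Stages were also compared, 4 against 4, by exact permutation. Other work used Python 3.11.15, pandas 2.3.3, scipy 1.17.1 and matplotlib 3.10.9. Row positions are those of the files (mm10), and RefSeq promoters are from GRCm38.p6.

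Named were all 10 genes in every comparison, up to 5 genes per marker list with the largest P1.5 genotype effect among those with at least 20 reads in a library, list genes called, the 8 genes most like the mean profile, Wfdc2 and Ly6c1. Csf1, Il34, Tlr4, Lyz2 and the sex-linked genes were added after their values were seen. The 10 genes and the lists were chosen with earlier results of these data known. Alternatives were quantile normalization or median centring, pseudocounts of 1 and 0.1 RPKM, a filter at 0.5 RPKM or none, a prior without trend, fits to the 4 libraries compared, replicate blocks, each library left out, and limma's voom with TMM factors on recovered reads. Removing the reads of genes inside Cx3cr1, and medians without Cx3cr1, were chosen after seeing the data.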

Additional observations from a re-analysis of the deposited data

Results flagged for a closer look

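For Msr1 and Ly6c2 the genotypes stood in opposite order at the 2 stages: both Wfdc2 GFP/GFP lungs were below both Wfdc2+/+ lungs at E18.5 and above them at P1.5. The genotype difference at P1.5 minus that at E18.5 was 2.25 on the log2 scale for Msr1 (SE 0.61, unadjusted p = 0.0066 and adjusted p = 0.280 with limma). For Ly6c2 it was 2.60 (SE 0.77, unadjusted p = 0.0103 and adjusted p = 0.321 with limma). Neither passed the threshold over 15627 genes, and in no alternative was either difference called, with adjusted p between 0.114 and 0.363 for Msr1 and between 0.133 and 0.347 for Ly6c2 with limma. Ly6c2 shares 18.8% of its 36-base sequences with Ly6c1, whereas none of those of Msr1 were found in another gene. The sign of both differences was positive under each alternative run, but with a pseudocount of 1 RPKM the difference for Msr1 was 0.26 and its P1.5 effect 0.16. Msr1 lay between 0.0725 and 0.239 RPKM in every library, so a pseudocount of 1 RPKM draws any change of it towards 0. For Ly6c2 the E18.5 side rested on Wfdc2 GFP/GFP replicate 1, at 1.69 RPM, while replicate 2 had 4.79 RPM against 5.98 and 5.26 RPM in Wfdc2+/+, and the E18.5 effect ran from -1.73 to -0.23 when single libraries were left out. Groups of 2 lungs are too small for a check of single outlying samples.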

How the results depend on the processing

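The 10 genes' 5 comparisons were recomputed under 21 alternatives. No genotype comparison, and not the difference between stages, gained a call among the 10 under any of them. Of the 2 calls over birth in Wfdc2 GFP/GFP (Cd14 and Marco), the count was 5 with median centring, 5 with the 4 libraries alone, 6 with voom and 0 to 5 when single libraries were left out. In Wfdc2+/+ it was 0, and 0 to 2 with single libraries left out, the 2 arising without P1.5 Wfdc2+/+ replicate 2. The genes with an exact permutation p under 0.05 over both genotypes were 2, and 6 with median centring and 5 with quantile normalization. Such a p needs stages without overlap in either direction. With the values as deposited, 7.28% of all genes had this with P1.5 higher and 13.7% with P1.5 lower. For the other 2 scales the share over all genes was not computed, so the 6 and 5 have nothing to be set against. With a library left out its two-sided p, the smaller tail doubled, was 0.0571 for Marco and Cd14, the smallest that 3 against 4 allow. With the absolute difference as the statistic, chosen after seeing the data, the exact permutation p without each library in turn was 0.0286 for Marco in all 8 cases and 0.0286 to 0.0571 for Cd14.

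Over all 15627 genes the calls in Wfdc2 GFP/GFP over birth were 711 (252 higher and 459 lower), but 237 with a pseudocount of 1 RPKM, 349 without a filter, 1279 with median centring (849 higher and 430 lower), 3036 with the 4 libraries alone, 1689 with voom (1073 higher and 616 lower), 706 with quantile normalization (377 higher and 329 lower), and 0 to 4874 with single libraries left out (0 without E18.5 Wfdc2 GFP/GFP replicate 1, 4863 without P1.5 Wfdc2+/+ replicate 2). In Wfdc2+/+ they were 9, and 2166 without that last library. Between genotypes they were 0 to 39 at P1.5 and 0 to 22 at E18.5 over all alternatives.

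Same-numbered libraries deviated together within a stage (correlation 0.23 at E18.5 and 0.21 at P1.5) and not across stages (-0.29 to 0.08). With 2 pairs per comparison and no label for shared litters the numbers were not taken as pairs. With the replicate number as a block within stage, 2 of the 10 genes were called over birth in Wfdc2 GFP/GFP and 0 in the other comparisons, as without the block, while calls over all genes went from 2 to 39 at P1.5, from 3 to 6 at E18.5, from 0 to 31 for the difference and from 9 to 3 over birth in Wfdc2+/+. A fixed replicate term left 125 of 711 calls in Wfdc2 GFP/GFP and the same 2 among the 10. No call among the 10 was changed by either block.

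Of 920 recomputed log2 fold changes of the 10 genes, 43 changed sign, none of them called. At E18.5 between genotypes, median centring gave -0.15 for Cd68, -0.17 for Marco, -0.0204 for Pparg and -0.11 for Cx3cr1, quantile normalization -0.11 for Cd68, -0.0182 for Marco and -0.10 for Cx3cr1, voom -0.15 for Cd68, -0.17 for Marco and -0.0526 for Cx3cr1, and removal of the inner genes' reads -0.0606 for Cx3cr1. At P1.5 quantile normalization gave 0.12 for Pparg. For the difference, Csf1r was 0.33, 0.26 and 0.22 with median centring, quantile normalization and voom, Pparg 0.04 with quantile normalization and Cx3cr1 0.0279 without the inner reads. Over birth, Ly6c2 in Wfdc2+/+ was 0.0238 with median centring, Cx3cr1 in Wfdc2+/+ was -0.31 without the inner reads, and Cx3cr1 in Wfdc2 GFP/GFP was 0.48, 0.61 and 0.30 with median centring, quantile normalization and voom. With single libraries left out, the genotype effect at P1.5 ran from -0.80 to 0.18 for Csf1r, -0.42 to 0.52 for Mrc1, -0.72 to 2.65 for Itgax and -0.95 to 0.23 for Pparg. At E18.5 it ran from -0.64 to 0.77 for Cd68, -0.75 to 0.82 for Marco and -0.14 to 0.35 for Cx3cr1. The difference ran from -0.57 to 0.41 for Csf1r, -0.0439 to 1.36 for Cd68, -0.27 to 1.30 for Marco and -1.14 to 0.0363 for Pparg. Over birth in Wfdc2+/+ the range was -0.27 to 0.71 for Csf1r and -0.78 to 0.30 for Ly6c2, and in Wfdc2 GFP/GFP -0.0679 to 0.36 for Csf1r, -0.41 to 0.53 for Mrc1 and -0.43 to 0.0511 for Cx3cr1. The causes of these changes were not tested. Depth limits Itgax most, with 7 to 39 reads at E18.5.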
